A study of Mus musculus with 4 samples.

Results

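N6-methyladenosine (m6A) is a methyl mark on internal adenosines of mRNA. It is written by a complex around METTL3 and METTL14 with WTAP and further subunits, is read by YTH-domain proteins and can be removed by FTO and ALKBH5. The writer favours a short consensus, DRACH in the one-letter base code, of which GGACT, with T for the U of RNA, is the best known form. In mammalian mRNA the mark is known to gather near stop codons, in 3' UTRs and in long internal exons.

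The m6A landscape of control liver was described from 12815 distinct peaks, all of the distinct regions in the deposited peak table of the series, by setting the immunoprecipitated (IP) library of flox mice over the input library of the same mice. IP was poly(A)+ RNA, fragmented and pulled down with an antibody against m6A. Input was the fragmented RNA without the pull-down. Both libraries came from Mettl3 flox/flox mice, C57BL/6, on chow and 8 weeks old, which carry loxP sites in Mettl3 but no Cre. These are 2 of the 4 libraries of the series. The other 2 are the IP and the input of HKO mice (Mettl3 flox/flox with Alb-Cre, deleting in hepatocytes), which share the floxed allele. Their values are not used. Each library held RNA pooled from several mice, so there is 1 library per fraction and no spread between animals. Enrichment is the IP level over the input level, both in RPM (reads scaled to a library total of 1000000). The interval of an enrichment is an exact 95% interval of the read counts. It treats each read as independent and covers counting error only, and no p-value can be given.

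The IP library held 17784101 reads and the input library 14972301. Peaks took 46.5% of the IP reads and 19.98% of the input reads, with a median of 224 IP reads and 67 input reads per peak. Every listed peak had an enrichment above 1, from 1.001 upwards, so a value above 1 is a condition of the table and not a result. Peaks had been merged over both genotypes, and 8799 of the 12815 are marked as called in flox. Of 10 hepatocyte markers 7 had a peak, with summed peak levels of 17003 RPM in IP and 10409 RPM in input. Fga, Apoa1, Ttr and Alb, for secreted plasma proteins, were among them. Markers of other liver cells were also present, at a summed 1499 RPM in IP and 582 RPM in input for Kupffer cells and macrophages (15 of 16 markers) and 1188 RPM in IP and 302 RPM in input for endothelial cells (13 of 16). In stellate cells, cholangiocytes, lymphocytes and erythroid cells 8 of 14, 4 of 10, 3 of 12 and 2 of 7 markers had a peak, with summed input levels between 27.7 and 42.5 RPM. A marker without a peak has no level in the table. A low input level can mean few cells of a type or little RNA per cell, and these cannot be told apart here.

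The sites under some of the strongest peaks are shown first, because the consensus is what links the later comparisons. Each line gives 25 bases of the GENCODE transcript (GRCm38, 5' to 3' on the gene's strand, with T for U), with the consensus match nearest to the middle of the peak in capitals. The first 6 hold GGACT, the next GGAC, and the last another DRACH 5-mer. The region named is that of the middle of the peak. In Herc2 that middle is 40 nt past the stop codon and the site 107 nt upstream of it. The Herc2 site itself thus lies in coding sequence.
Usp1, coding sequence, chr4:98934433-98934457, + strand: agaaggtattGGACTtctcggtgga
Rgs1, 3' UTR, chr1:144245048-144245072, - strand: aaatacagtgGGACTctattcaaac
Herc2, 3' UTR, chr7:56231053-56231077, + strand: acagcagtgaGGACTcagataatga
Cmpk2, 3' UTR, chr12:26478384-26478408, + strand: gcctgctggaGGACTttctgcagct
Kcnj8, coding sequence, chr6:142565855-142565879, - strand: tgtactctgtGGACTattccaaatt
Lzts3, coding sequence of an internal exon, chr2:130636478-130636502, - strand: cctcaaaggcGGACTggacaagtct
Gimap9, coding sequence, chr6:48678331-48678355, + strand: caaaactttgGGACgagttgtggta
Nck1, 3' UTR, chr9:100495446-100495470, - strand: tcgtcagcagTGACTgttccacagc
These are matches of letters under a peak and not mapped methylation sites.

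Enrichment differed widely between peaks. The median peak was enriched 2.84-fold (95% interval over peaks 2.80 to 2.88), the 25th and 75th percentiles were 1.81 and 4.37, and the 5th and 95th 1.15 and 8.04. At least 4-fold enrichment, the mark of a strong peak used here, was reached by 3843 of 12815 peaks, which is 30.0%. At least 8-fold was reached by 652 peaks (5.09%). The 4-fold line cuts through a continuous distribution, with 360 peaks between 3.9 and 4.1. Strong peaks held 28.3% of the IP reads in peaks and 12.3% of the input reads. The 3837 peaks under 2-fold held 33.4% of the IP reads and 56.0% of the input reads.

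The strongest enrichment lay at the 3' end of genes. The table gives each peak the class of its centre. Last-exon peaks had a median of 3.59 (3.49 to 3.72, n = 2371) and 3' UTR peaks one of 3.51 (3.42 to 3.61, n = 2574). Internal-exon peaks reached 2.37 (2.30 to 2.44, n = 2972), 5' UTR peaks 2.21 (2.12 to 2.31, n = 1071) and first-exon peaks 2.14 (2.04 to 2.23, n = 807). The intervals of the 2 classes of the 3' end overlapped each other and none of those of the other 3 classes.

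The share of strong peaks was also higher at the 3' end. It was 42.9% (40.9 to 44.9) in last exons and 41.8% (39.9 to 43.8) in 3' UTRs, against 19.9% in internal exons, 15.2% in first exons and 14.1% (12.1 to 16.3) in 5' UTRs, beside 30.0% of all peaks. Last exons and 3' UTRs held 54.5% of the strong peaks and 38.6% of all peaks. The median over both together was 3.55, against 2.45 in all other classes, 1.45 times as high (1.39 to 1.499). Among peaks marked as called in flox this ratio was 1.26.

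The remaining classes lay between these. Intron peaks had a median of 2.53 (n = 700, 26.0% strong), peaks with no gene in the table one of 2.96 (n = 1003, 32.5% strong), and peaks whose rows gave more than 1 class 2.86 (n = 1200, 29.2% strong). The 117 peaks whose centre fell outside the overlapped gene had a median of 2.53.

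The 20 genes with the strongest peak, among 11206 peaks with at least 20 input reads, were enriched at least 11.1-fold. For each, the level in IP and in input is given with the enrichment. In Sema6a, encoding a transmembrane semaphorin, the IP level was 26.1 RPM and the input level 1.40 RPM (chromosome 18, 47248436 to 47249265), an enrichment of 18.6 (12.5 to 32.3). D17H6S53E followed with 22.9 RPM in IP and 1.40 RPM in input (chromosome 17, 35127176 to 35127452), an enrichment of 16.4 (10.9 to 28.3). Gimap9, for a GTPase of the immunity-associated family, had 32.4 RPM in IP and 2.34 RPM in input (chromosome 6, 48677928 to 48678676), an enrichment of 13.9 (10.1 to 20.8). The intervals of these top 3 overlapped, so their order is not fixed by the counts.

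The best counted among the 20 were the peaks of Rgs1, Herc2, Usp1 and Nck1, each with 60 or more input reads. Rgs1, which limits G protein signalling, had 61.5 RPM in IP and 5.01 RPM in input (chromosome 1, 144244754 to 144245487), an enrichment of 12.3 (9.81 to 15.9). Herc2, a very large ubiquitin ligase, had 67.8 RPM in IP and 5.68 RPM in input (chromosome 7, 56230875 to 56231468), an enrichment of 11.9 (9.67 to 15.2). Usp1, a deubiquitinase of DNA repair, had 63.0 RPM in IP and 5.34 RPM in input (chromosome 4, 98934091 to 98934781), an enrichment of 11.8 (9.49 to 15.2). Nck1, an SH2 and SH3 adaptor, had 46.3 RPM in IP and 4.07 RPM in input (chromosome 9, 100495268 to 100495722), an enrichment of 11.4 (8.87 to 15.3). These 4 could not be ranked among themselves, and each lower limit exceeded 8.

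The other 13 lay between 11.1- and 13.03-fold, with 15.6 to 31.8 RPM in IP and 1.40 to 2.60 RPM in input. They were Cmpk2, a mitochondrial nucleotide kinase, Sult2a8, a hepatic sulfotransferase, Twistnb, a subunit of RNA polymerase I, Hivep2, a zinc finger transcription factor, Cfhr3, related to complement factor H, Kcnj8, the pore of an ATP-sensitive potassium channel, Emsy, a nuclear partner of BRCA2, Bambi, a decoy receptor of TGF-beta signalling, Cyb5rl, Tshz1, a zinc finger homeobox protein, Zfp1, Kbtbd7, a BTB and kelch protein, and Rsbn1l. Sult2a8, Cfhr3 and Gimap9 have close relatives in the genome, and the counting of reads that match several copies is unknown.

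The 20 peaks were alike in place. All 20 were called in flox, as were 68.7% of all peaks, but a call rests on IP over input too and is not independent of the choice. In 18 of them the peak could be placed on a reference transcript, and all 18 lay in its last exon, which was 904 to 4615 nt long. The transcript of Kbtbd7 has only 1 exon. The middle of the peak was in the coding sequence in 11 and in the 3' UTR in 7, and lay within 500 nt of the stop codon in 15. Of all 10292 peaks on coding transcripts, 5556 had their middle in the coding sequence and 3352 in the 3' UTR. No share over all placed peaks was computed for the last exon or for 500 nt around the stop codon. By class of the centre, 17 of the 20 were last-exon or 3' UTR peaks, beside 38.6% of all peaks. GGACT was present in 13 of the 18 peaks and GGAC without a following T in 4, while 1, that of Nck1, held neither. These whole peaks were 277 to 920 nt long, and no share over all peaks was computed for such lengths. The peaks of Sult2a8 and Cfhr3 lay in introns.

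The choice of 20 input reads as the minimum decided part of this list. Of the 20 peaks 16 had fewer than 40 input reads. Just inside the minimum, 208 peaks of named genes had exactly 20 input reads, with a median enrichment of 3.65 and 6 of them above 11.1. Just outside it, 48 peaks had 19 reads, with a median of 4.88 and Zkscan6 the highest at 13.05. Counts of 20 were thus far more frequent than counts of 19. Whether both reads of a pair were counted apart is not known, and the difference was not tested. In 28 peaks no input read was counted. Such a count allows up to 3 reads, or 0.200 RPM, and against that floor 25 of the 28 were at least 4-fold enriched. The highest was a 3' UTR peak of Sox9, a transcription factor of cholangiocytes in liver (chromosome 11, 112785658 to 112785870). It had 7.37 RPM in IP and 0 reads in input, 36.5-fold over that floor, with a lower counting limit of 29.25. Zkscan6 and Sox9 were chosen after their values were seen. The 28 peaks were picked by an input count of 0, which by itself favours a high ratio. Strong peaks made up 67.6% of the lowest decile of input level and 30.0% of all peaks.

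**Figure D1:**
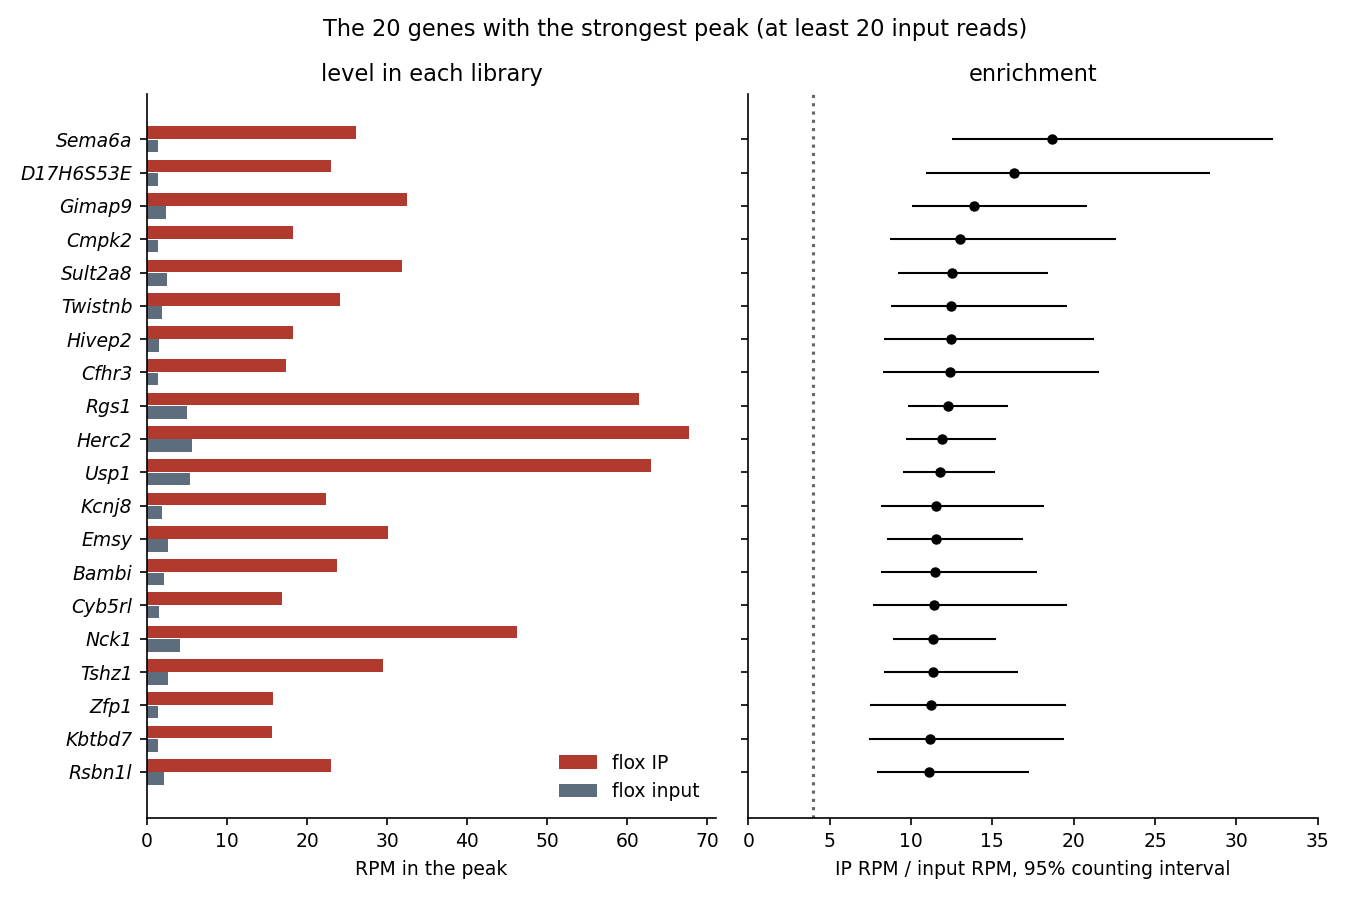
Level in IP (red) and input (grey) in RPM, and IP over input with its 95% counting interval, of the strongest peak of the 20 top genes with at least 20 input reads in that peak. Every lower limit lies right of the dotted 4-fold line, the intervals of neighbours overlap throughout, and Rgs1, Herc2, Usp1 and Nck1 have the highest levels in both libraries.

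The 5' UTR, first-exon and internal-exon classes also held strongly enriched peaks, though none of a named gene with at least 20 input reads was among the top 20. With that minimum, the strongest 5' UTR peak was that of Hand2, a bHLH transcription factor that marks stellate cells in liver, with 30.1 RPM in IP and 2.87 RPM in input (chromosome 8, 57321005 to 57321735), an enrichment of 10.5 (7.83 to 15.1). Crebl2, a bZIP protein, followed in that class with 11.2 RPM in IP and 1.40 RPM in input, an enrichment of 7.98 (5.25 to 13.9). The highest first-exon peaks were in Sfswap, a splicing regulator, at 9.14 (6.32 to 14.7) and in Mup16, a major urinary protein, at 9.02 (5.96 to 15.7). The medians of these classes were 2.21 and 2.14.

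Among internal-exon peaks with at least 20 input reads, the strongest were in Lzts3 and Elmsan1. Lzts3, a leucine zipper protein, had 23.7 RPM in IP and 2.20 RPM in input (chromosome 2, 130636298 to 130636663), an enrichment of 10.8 (7.73 to 16.4). Elmsan1, a subunit of a histone deacetylase complex, had 14.4 RPM in IP and 1.47 RPM in input (chromosome 12, 84172763 to 84173466), an enrichment of 9.80 (6.55 to 16.8). The exons that hold them are 855 and 1670 nt long. Where a peak centre fell outside the gene, the highest with this minimum were Mup22 at 8.21 (6.84 to 10.1) and Rbbp6, a ubiquitin ligase, at 7.65 (6.86 to 8.59). The Mup genes are near-identical copies, so reads of one can have been counted at another.

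Placing the peaks on reference transcripts gave the position along the message. A coding transcript was found for 10292 peaks. The median was 3.41 (3.33 to 3.49, n = 3352) in 3' UTRs, 2.86 (2.79 to 2.92, n = 5556) in coding sequence and 2.23 (2.15 to 2.31, n = 1384) in 5' UTRs. The 3' UTR median was 1.53 times that of the 5' UTR, and 1.38 times when only peaks lying wholly in 1 region were taken. In the same regions 38.8%, 31.2% and 13.5% of the peaks were strong.

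Enrichment was high on both sides of the stop codon. It was 2.78 (2.68 to 2.89) more than 2000 nt upstream, 2.50 (2.41 to 2.58) between 2000 and 1000 nt upstream, 2.36 (2.28 to 2.46) between 1000 and 500 nt upstream, and 3.78 (3.43 to 4.14) between 200 and 100 nt upstream. Downstream it was 3.45 in the first 100 nt, 3.73 (3.57 to 3.89) between 200 and 500 nt, and 2.72 (2.41 to 3.06) beyond 2000 nt. The share of strong peaks was 47.4% between 200 and 100 nt upstream and 44.0% between 200 and 500 nt downstream, beside 23.2% beyond 2000 nt downstream. Downstream the median was highest between 200 and 500 nt and lower farther out, while upstream it was lowest between 1000 and 500 nt.

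Away from the 3' end, exon length went with enrichment. Internal coding exons of up to 150 nt had a median of 1.71 (1.63 to 1.78, n = 888), those of 200 to 300 nt 1.86 (n = 357), those of 400 to 600 nt 2.85 (2.72 to 3.13, n = 259) and those of 600 to 1000 nt 3.73 (3.55 to 3.93, n = 354). Above that the median levelled off, at 3.74 for 1000 to 2000 nt and 3.41 for longer exons. Internal coding exons over 400 nt thus reached a median of 3.53 (3.41 to 3.63, n = 1158), against 1.83 (1.77 to 1.89, n = 1918) in those up to 400 nt. The long internal exons stood at the level of the 3' UTR, although they lie upstream of it.

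The distance to the nearest exon junction gave a similar course over all coding transcripts with a junction. Peaks whose middle lay within 50 nt of a junction had a median of 1.89 (n = 496), and those at 50 to 100 nt had 1.83 (1.78 to 1.88, n = 2160). The median was 2.56 at 100 to 200 nt (n = 1942), 3.56 at 200 to 400 nt (n = 2547) and 4.06 (3.96 to 4.17, n = 1485) at 400 to 800 nt. Strong peaks made up 51.5% at 400 to 800 nt, against 9.49% at 50 to 100 nt. At still larger distances the median fell again, to 3.31 beyond 1600 nt.

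Both 3' UTRs and internal coding exons showed this course. Within 3' UTRs the median was 3.78 at 400 to 800 nt from a junction (n = 696), against 1.75 at 50 to 100 nt (n = 53). Within internal coding exons it was 3.91 at 400 to 800 nt (n = 251), against 1.68 at 50 to 100 nt (n = 1185). Among peaks called in flox it was 4.14 at 400 to 800 nt, against 2.29 at 50 to 100 nt. Set against the median of peaks in the same decile of input level, an added comparison, peaks at 400 to 800 nt stood 1.52-fold above, and those at 50 to 100 nt were at 0.63 of it. Peak width moved with the distance, with a median of 567 nt at 400 to 800 nt and 239 nt at 50 to 100 nt, and its part in the result was not tested.

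**Figure D2:**
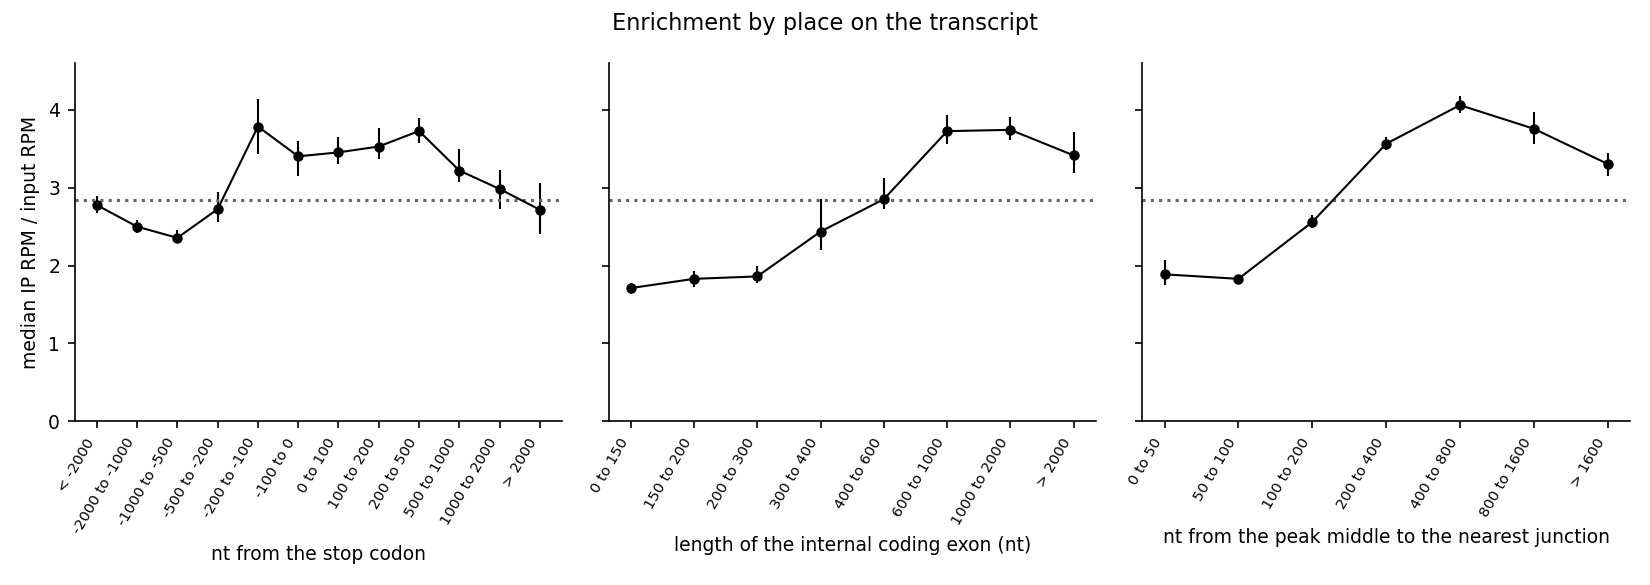
Median IP RPM over input RPM (points, with 95% intervals over peaks) by distance from the stop codon, by length of the internal coding exon, and by distance of the peak middle from the nearest exon junction. The dotted line is the median of all peaks, 2.84. The median rises to 3.78 just before the stop codon, to 3.73 in internal exons of 600 to 1000 nt, and to 4.06 at 400 to 800 nt from a junction.

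Peaks of the same gene could be set against each other. Of 6888 genes with a placed peak, 2770 had more than 1. In these the strongest peak was a median 1.86 times as enriched as the weakest (25th to 75th percentile 1.37 to 2.59), and the counting intervals of the strongest and the weakest peak did not overlap in 1419 genes (51.2%). Strongest peaks were more often in last exons (21.8%, against 15.3% of all peaks of these genes) and in 3' UTRs (24.9%, against 20.4%), and less often in internal exons (21.6%, against 33.1%). Taking the highest and lowest peak of each gene favours intervals that do not overlap, and no rate for unselected pairs was computed. These shares are descriptions of the same peaks and were not tested.

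In 649 genes a peak in the 3' UTR or within 200 nt of the stop could be set against one within 200 nt of the transcript start. The highest peak of each kind was taken. The 3' peak had a median enrichment of 2.82 and the start peak one of 2.15, and the 3' peak was higher in 398 genes (61.3%, 57.5 to 65.1). The median of the ratio within genes was 1.27 (1.17 to 1.37), below the 1.53 found between regions over all peaks.

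Genes with the most peaks were not the most enriched. Myh9, the heavy chain of non-muscle myosin, had 15 peaks between 1.40 and 3.28. Cgnl1, a protein of cell junctions, had 13 between 1.06 and 3.55, and Rrbp1, a ribosome receptor of the endoplasmic reticulum, 12 between 1.09 and 2.99. None of the peaks of these 3 genes was strong. Eif3a, a translation initiation factor subunit, had 11 peaks, 2 of them strong, with 4.80 the highest. Son, a splicing cofactor, also had 11 peaks, 2 of them strong, between 1.62 and 7.08.

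Enrichment fell as the input level rose. By decile of input level, the median was 5.64 (5.31 to 6.01) in the lowest, up to 1.14 RPM, 2.74 in decile 5 and, in the highest, from 24.1 RPM, 1.84 (1.79 to 1.97). Strong peaks made up 67.6% of the lowest decile and 12.8% of the highest. Spearman's rho across the 12815 peaks was -0.37. Input is the denominator of the enrichment, so the 2 measures are not independent. The coefficient was -0.25 among peaks with at least 20 input reads and -0.53 among those called in flox.

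The difference between the ends of the transcript was present at every input level. Last-exon and 3' UTR peaks had a median 2.18 times that of 5' UTR and first-exon peaks in the lowest decile, between 1.53 and 1.85 times in deciles 2 to 9 and 1.35 times in the highest. The medians behind the highest decile were 2.163 at the 3' end and 1.60 at the 5' end.

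The peaks with the most IP reads were those of very abundant RNAs, and their enrichment was low. Fga, a chain of fibrinogen, had 6348 RPM in IP and 2918 RPM in input, an enrichment of 2.18 (2.15 to 2.20). Apoa1, of high-density lipoprotein, had 5820 RPM in IP and 3652 RPM in input, an enrichment of 1.59. The mitochondrial mt-Nd5 and mt-Nd2, for subunits of complex I, were at 1.40 and 1.53. Of the 5 peaks with the most IP reads, only that of Apoa5, a regulator of plasma triglycerides, exceeded the median enrichment, with 4091 RPM in IP and 1253 RPM in input, an enrichment of 3.26 (3.21 to 3.32). The median of all peaks was 2.84.

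The consensus became more frequent with enrichment. Windows of 200 nt around the middle of the peak were read from the transcript for 10820 peaks, on the strand of the transcript only. A GGACT match is also a DRACH match. GGACT was found in 19.6% (18.3 to 21.0) of windows under 2-fold, in 28.1% at 2- to 4-fold, in 35.8% at 4- to 8-fold and in 41.2% (37.1 to 45.5, n = 548) at 8-fold or more, beside 28.2% of all windows. The same letters read backwards, TCAGG, were found in 21.3%, 23.3%, 23.4% and 21.9% of these windows. The median GC content moved little, from 53% in the lowest to 51.5% in the highest of these 4 tiers. Strong peaks held GGACT in 36.7% and peaks under 2-fold in 19.6%, a ratio of 1.87 (1.67 to 2.101).

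More copies went with more enrichment. Windows without GGACT had a median enrichment of 2.68 (n = 7765), with 1 copy 3.29 (3.19 to 3.37, n = 2517), with 2 copies 4.03 (3.80 to 4.29, n = 463) and with 3 or more 4.46 (3.83 to 5.46, n = 75). The strong share was 27.2%, 37.5%, 50.8% and 58.7%. Over the whole peak, Cmpk2 and Kbtbd7 have 3 copies each, Usp1 has 2, and Gimap9 and Nck1 have none.

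The 18 DRACH 5-mers did not behave alike. After GGACT, the largest ratios of the share in strong peaks to that in peaks under 2-fold were those of GAACT (30.1% against 18.6%, ratio 1.61), TGACT (26.6% against 16.6%, ratio 1.60) and AGACT (32.4% against 20.6%, ratio 1.58). All 4 end in T. GGACA followed TAACT with a ratio of 1.36, GGACC had 1.15, and GAACC and AGACC were at 0.95 and 0.94. The reversed consensus had 1.09. Any DRACH 5-mer at all was present in 95.04% of windows under 2-fold and in 99.1% at 8-fold or more, a small difference.

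The rise was seen in each part of the transcript. In last exons and 3' UTRs GGACT was in 42.7% of windows at 8-fold or more and in 21.7% under 2-fold. In internal exons the shares were 35.1% (n = 77) and 17.9%, and in 5' UTRs and first exons 48.1% (28.7 to 68.1, n = 27) and 19.1%.

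GGACT also lay near the middle of strong peaks. In the central 50 nt there were 14.1 sites per 100 strong peaks, against 10.2 per 100 peaks and 50 nt in the flanks at 50 to 100 nt, a ratio of 1.38. Under 2-fold the values were 5.93 and 5.15, a ratio of 1.15. TCAGG was even, at 6.51 and 6.69 in strong peaks. For peaks called in flox with a single summit, an anchor added after the data were examined, strong peaks had 24.5 GGACT sites per 100 peaks within 25 nt of the summit and 10.4 per 50 nt in the flanks, a ratio of 2.35 (n = 850). TCAGG had 7.65 and 6.82 around the same summits. Around the summits of peaks under 2-fold, GGACT had 10.4 and 5.20, a ratio of 2.0 (n = 173). At 2- to 4-fold its ratio was 1.625 (n = 1083). The ratio around summits thus did not rise steadily with enrichment.

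**Figure D3:**
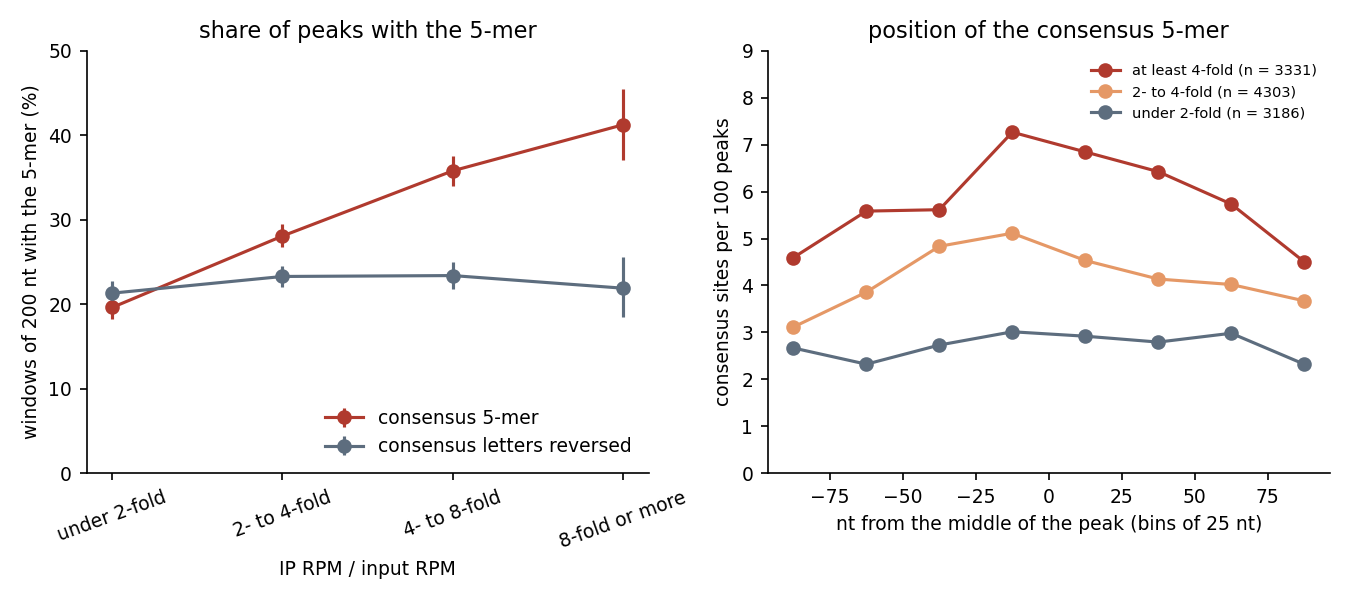
Share of 200-nt windows with the consensus (red) or with its letters reversed (grey) by tier of IP over input, with exact 95% intervals, and consensus sites per 100 peaks in bins of 25 nt around the middle of the peak. The consensus rises from 19.6% to 41.2% of windows while the reversed letters stay between 21.3% and 23.4%, and strong peaks have more sites than peaks under 2-fold in every bin, most in the centre.

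Genes were then compared by the enrichment of their strongest peak. Over 6987 genes the median was 3.47 (3.41 to 3.53), and 2875 genes (41.1%) had a strong peak. Of 25 gene lists 12 had a higher median and 13 a lower one. The lists with high medians were mostly of regulators and those with low medians mostly of metabolism and of the basal machinery. Some genes are in more than 1 list. List medians use the strongest peak of any depth, and the genes named below are the highest and lowest among peaks with at least 20 input reads. Median input differed between lists, from 1.27 RPM in the m6A writer genes to 63.7 RPM in plasma proteins among the nuclear lists, beside 4.74 RPM over all genes, so each list's median was also set against the peaks of the same decile of input level. On that scale all genes stood at 1.22, and 23 of 25 lists stayed on their side of it, while ER stress and protein folding (1.37) and solute carriers (1.26) moved above.

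Zfp genes and chromatin modifiers had high medians, but the order of the high lists changed with the setting: with at least 20 input reads both stood at 4.77, below immediate-early genes (4.92) and BMP, TGF-beta, Wnt and Notch genes (4.88). Over all depths, the Zfp zinc finger genes had a median of 5.87 (5.17 to 6.42), and 104 of 129 had a strong peak, at a median input of 2.14 RPM. The highest Zfp gene over all depths was at 36.5. Among peaks with at least 20 input reads Zfp1 led with 15.7 RPM in IP and 1.40 RPM in input, an enrichment of 11.2. Zfp629 (10.1), Zfp24 (9.31) and Zfp64 (8.38) followed, and Zfp598 was lowest at 1.37. Chromatin modifiers had a median of 5.60 (4.67 to 6.06), with 57 of 70 strong. Kdm5a, a histone demethylase, was at 9.58, Crebbp, an acetyltransferase, at 8.48, Arid2, of a remodelling complex, at 7.64 and Chd3, another remodeller, at 7.58. Hdac11 was the lowest at 1.42. In the scale relative to input the 2 lists stood at 1.74 and 1.79, beside 1.22 for all genes.

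Nuclear receptors and their coregulators had a median of 4.88 (4.62 to 6.14), with 25 of 31 strong. Rara, a retinoic acid receptor, had 50.3 RPM in IP and 5.88 RPM in input, an enrichment of 8.56 (6.94 to 10.9). Rora, an orphan receptor of the clock, was at 7.28, and Nr1h4, the bile acid receptor FXR, at 7.06. Nr1h3, the oxysterol receptor LXR alpha, had 42.7 RPM in IP and 25.3 RPM in input, an enrichment of only 1.69 (1.49 to 1.92). That was its strongest peak with the minimum of input reads, but not at any depth. Over all depths the lowest gene of the list was at 2.20, so Nr1h3 had a stronger peak on fewer input reads. The peaks of Rara, Rora and Nr1h4 differed from this Nr1h3 peak by more than their counting error.

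Liver-enriched transcription factors had a median of 4.07 (2.99 to 6.05), with 8 of 15 strong (53.3%), beside 41.1% of all genes. That interval holds the 3.47 of all genes. Onecut2 (8.20), Onecut1 (7.82), Foxa1 (6.07) and Nr5a2 (6.05) were the highest. Xbp1, a factor of the unfolded protein response, was at 2.62 (2.49 to 2.76). Circadian clock genes had a median of 4.77 (3.19 to 4.93), an interval that also holds 3.47, with 9 of 15 strong. Csnk1d, a kinase of the clock proteins, was at 5.80, Nr1d2 at 5.43 and Bhlhe41 at 4.93, against 1.95 (1.59 to 2.42) in Nr1d1, through a 5' UTR peak.

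Signalling genes were similar. BMP, TGF-beta, Wnt and Notch genes had a median of 5.51 (4.33 to 6.34), with 34 of 46 strong. Acvr2a, an activin receptor, had 43.6 RPM in IP and 4.27 RPM in input, an enrichment of 10.2 (8.00 to 13.6). Bmp2, a ligand made by liver endothelium, had 131 RPM in IP and 13.4 RPM in input, an enrichment of 9.76 (8.48 to 11.4). Inhbb was at 8.38 and Bmpr1a at 7.73, and Bmp5 was lowest at 1.97.

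Insulin, PI3K, AKT and FOXO genes had a median of 5.13 (3.34 to 7.50), an interval that holds the 3.47 of all genes, with 16 of 26 strong. Pik3r1, the regulatory subunit of PI3-kinase, had 118 RPM in IP and 12.2 RPM in input, an enrichment of 9.64 (8.33 to 11.3), and Pik3ca, its catalytic partner, 58.5 RPM in IP and 6.08 RPM in input, an enrichment of 9.62 (7.83 to 12.2). Foxo3 (7.67) and Foxo1 (7.52) followed, and Akt1 was lowest at 1.57. Growth hormone, STAT and SOCS genes had a median of 4.62, with 15 of 22 strong. Stat2 was at 8.85, Socs6 at 6.42, and Egfr had 409 RPM in IP and 66.5 RPM in input, an enrichment of 6.16 (5.77 to 6.60). Stat3 was at 1.11 (0.78 to 1.60), an interval that holds 1.

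Immediate-early genes had a high median at an input level above that of all genes (4.74 RPM). Liver-enriched transcription factors had a like input, 13.4 RPM, and several lists with low medians had more. The median of the immediate-early genes was 5.21 (4.07 to 7.07), with 21 of 29 strong, at a median input of 13.2 RPM. On the scale relative to input they had the highest value of the 25 lists, 2.44. Jun, a subunit of AP-1, had 609 RPM in IP and 68.4 RPM in input, an enrichment of 8.90 (8.35 to 9.50). Klf2 had 113 RPM in IP and 12.4 RPM in input, an enrichment of 9.13 (7.89 to 10.7), and Fosl2 (10.6) and Ier5 (9.24) were higher on fewer reads. Jund, another AP-1 subunit, was at 1.43 (1.31 to 1.56), through a 5' UTR peak. The intervals of Jun and Jund did not overlap.

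Genes of liver metabolism were mostly low. Xenobiotic and steroid metabolism had a median of 1.94 (1.51 to 2.42), with 3 of 34 strong. Cyp3a13 (8.14), Cyp2c54 (4.89) and Cyp3a25 (3.69) had their values from peaks classed as intronic, and Ephx1, an epoxide hydrolase, was at 4.05 through a 5' UTR peak. Gstm1, a glutathione transferase, had 539 RPM in IP and 513 RPM in input, an enrichment of 1.05. The Cyp and Gst families have close copies that can share reads. Fatty acid oxidation had a median of 1.96 (1.51 to 2.62), with 4 of 24 strong. The 2 highest there with at least 20 input reads were regulators: Ppara, the fatty acid receptor, had 150 RPM in IP and 24.4 RPM in input, an enrichment of 6.14 (5.51 to 6.88), and Ppargc1a, its coactivator, was at 5.80. The enzymes Ehhadh, at 4.41 (3.47 to 5.80) and thus strong, and Eci2, at 3.115, came next. The enzymes Hsd17b4 and Acadm were lowest, at 1.29 and 1.20. Over all depths the highest gene of the list was at 8.98, on fewer input reads than the minimum.

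Lipogenesis and triglyceride storage had a median of 2.29 (1.498 to 3.03), with 3 of 20 strong. Plin4, a lipid droplet protein, was at 7.81 through a peak in a 1279-nt internal exon, Acaca, acetyl-CoA carboxylase, at 4.28, and Scd1 and Plin2 at 1.25 and 1.22. Glycolysis and gluconeogenesis had a median of 1.74 (1.16 to 5.59), an interval that holds the 3.47 of all genes, with 3 of 12 strong. Tpi1, triosephosphate isomerase, was at 1.05 (0.91 to 1.22). Sterol and bile acid genes stood nearer the middle, with a median of 2.96 and 6 of 20 strong. Abca1, the cholesterol exporter, had 123 RPM in IP and 23.2 RPM in input, an enrichment of 5.31 (4.75 to 5.98), and Fdft1 was at 1.27.

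Plasma protein genes, the most abundant mRNAs of hepatocytes, had a median of 1.71 (1.55 to 2.08), with 8 of 66 strong, at a median input of 63.7 RPM. On the scale relative to input they were at 0.86. Inhbe, a hepatokine, led with 42.7 RPM in IP and 6.28 RPM in input, an enrichment of 6.80 (5.53 to 8.61), followed by Mug2 (5.16), Lifr (4.89) and F9 (4.39). Alb, albumin, had 364 RPM in IP and 362 RPM in input, an enrichment of 1.01 (0.97 to 1.04), and Apoc1 one of 1.02 (0.99 to 1.04).

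Genes of the basal machinery were low as well. Nuclear genes of respiration had a median of 1.47 (1.29 to 1.69), with 5 of 49 strong. The highest were assembly factors, Ndufaf4 at 5.51 and Ndufaf7 at 4.53, and the lowest with at least 20 input reads were Atp5b (1.06) and Ndufb6 (1.02). Cytosolic ribosomal proteins had a median of 1.66, with 2 of 19 strong, Rps4l and Rpl7l1, and Rpl8 was at 1.05. Mitochondrial ribosomal proteins had a median of 2.44 with 7 of 41 strong, led at 20 or more input reads by Mrpl46 at 7.23. The 4 genes of the mitochondrial genome with a peak lay between 1.12 and 2.70.

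Stress, transport and ubiquitin genes lay near all genes. ER stress and protein folding had a median of 3.04 with 10 of 31 strong, Dnajb11 (9.18) and Dnajb9 (8.06) at the top and Syvn1 (1.05) at the bottom. Heat shock and J-domain chaperones had 3.03 with 9 of 25 strong, led by Hspa1b (8.88), a member of a near-identical pair. Solute carriers had 3.26 with 33 of 104 strong, led at 20 or more input reads by Slc9a9 (7.58). Ubiquitin ligases and deubiquitinases had 3.84 with 33 of 74 strong, led at the same minimum by Herc2, Usp1, Usp53 (10.8) and Fbxw7 (9.37).

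**Figure D4:**
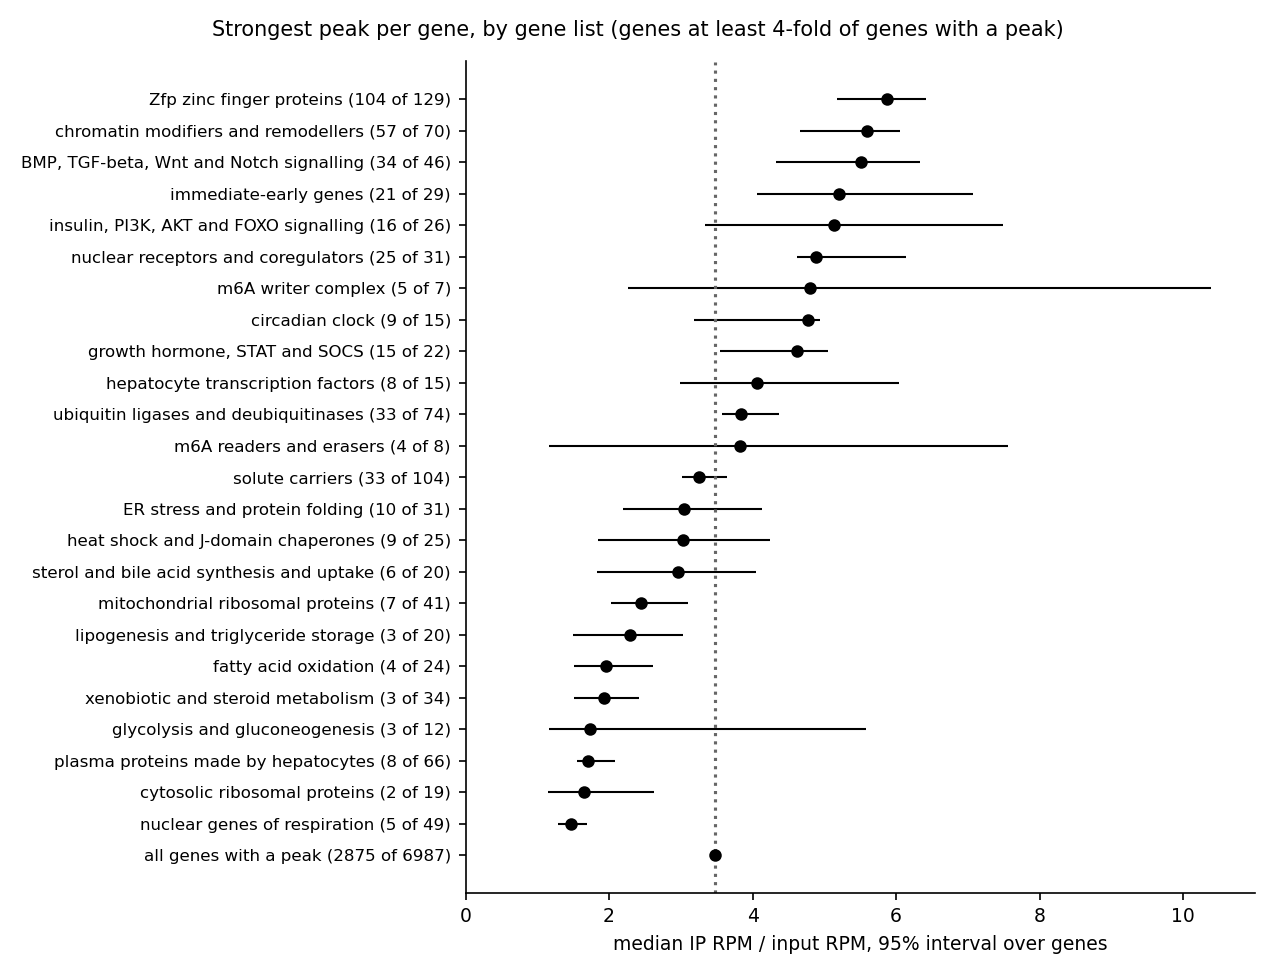
Median IP RPM over input RPM of the strongest peak per gene in 24 gene lists and in all genes with a peak, with the 95% interval over genes and, in parentheses, the genes with a strong peak of those with a peak. Zfp genes (5.87) and chromatin modifiers (5.60) are at the top and nuclear genes of respiration (1.47) at the bottom, on either side of the dotted median of all genes, 3.47.

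Genes of the m6A machinery had peaks too. Of the 10 listed writer genes 7 had a peak, with a median of 4.80 (2.26 to 10.4), an interval that holds the 3.47 of all genes, and 5 were strong. In 3 of the 7 the strongest peak had at least 20 input reads. Rbm15b, a recruiter of the complex to RNA, had 18.4 RPM in IP and 2.27 RPM in input, an enrichment of 8.10 (5.80 to 12.3). Wtap, its scaffold, had 17.3 RPM in IP and 2.81 RPM in input, an enrichment of 6.15 (4.53 to 8.93), Rbm15 was at 4.80 and Zc3h13 at 2.79 (2.17 to 3.69). Of the readers and erasers 8 of 13 had a peak, 4 of them strong, a share near the 41.1% of all genes. Ythdc1 (7.56) and Ythdf2 (7.48) stood above Ythdf3 (4.28, 3.86 to 4.77) and Ythdf1 (4.01, 3.57 to 4.54), all YTH readers, and Hnrnpa2b1 was at 1.17.

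No peak overlapped Mettl3, Cd36, the fatty acid transporter, Ccl2, the monocyte chemokine, or Srebf1, the lipogenic transcription factor. The table lists only peaks, so their reads are not seen here. Srebf1 was named in it once, as the nearest transcription start to a peak in the last exon of Tom1l2 (chromosome 11, 60229643 to 60230151). That peak had 16.9 RPM in IP and 6.55 RPM in input, an enrichment of 2.59 (2.06 to 3.31), under the 4-fold line.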

How the data were processed

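Poly(A)+ RNA from pooled livers of flox mice was sequenced as an m6A IP and an input library (MeRIP-seq). According to the submitters' notes, reads were aligned with BWA 0.7.12-r1039 to GRCm38 and MACS2 2.1.0, HOMER and FastQC were used. The methods of the study name exomePeak for peak calling, so the sources differ. Strand, treatment of PCR duplicates and of reads with several matches are not given in the sources used here. PCR copies are not independent molecules, nor are both reads of a pair, if counted apart. The intervals treat all reads as independent, cover counting error only and can be too narrow.

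The authors deposited raw counts per merged peak and RPM values, which equal the count plus 1 scaled to 1000000 library reads. The deposited ratio (fold enrichment) and log2 change columns are the authors' own comparisons and were not used. Value columns without a sample numbered 0.

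The 14395 rows were reduced to 12815 peaks. IP RPM over input RPM was computed with exact (Clopper-Pearson) 95% intervals from IP and input counts. Medians have order-statistic intervals and shares exact binomial ones, both over peaks or genes. Scripts were tested on simulated data. Of 7835 gene identifiers 7831 were in GENCODE vM21 (GRCm38), and 11585 peaks were placed on 1 transcript each, preferring a principal isoform with 90% of the best overlap. Classes, positions, motifs and lists were described without a test, since there was 1 library per fraction. Python 3.11.15 with numpy 2.4.6, scipy 1.17.1, pandas 2.3.3 and matplotlib 3.10.9 was used.

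The peaks, the 25 gene lists and the tests were chosen with earlier results of these data known. Genes were named by rule: the 20 highest peaks with at least 20 input reads, 1 per gene and without predicted genes, the 2 highest per class, up to 4 highest and 2 lowest per list, the 5 genes with most peaks, the 5 peaks with most IP reads, and Mettl3, Cd36, Ccl2 and Srebf1. Alternatives were other folds, count filters, scalings, windows and peak sets. Some genes that the rule names are not reported here.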

Additional observations from a re-analysis of the deposited data

How the results depend on the processing

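The count of strong peaks (3843) depended on the line drawn. It was 8978 at 2-fold, 652 at 8-fold and 2029 when the lower counting limit had to reach 4-fold, and 390 when libraries were scaled by their reads in peaks, by construction, since peaks hold 46.5% of IP and 19.98% of input reads. The 3952 without an added read, 2793 with at least 20 input reads and 3386 among peaks called in flox lay within 1.5 times. The median of all peaks (2.84) was 1.22 under the scaling by reads in peaks, 2.63 with at least 20 input reads and 3.41 among peaks called in flox. Among peaks called in flox the 3' end stood 1.26 times above the other classes (1.45), 3' UTR peaks 1.37 times above 5' UTR peaks (1.53), and the GGACT ratio of strong to weak peaks was 1.57 (1.87). The UTR ratio was 1.38 for peaks wholly inside 1 region, and the GGACT ratio 2.164 in windows of 100 nt. Spearman's correlation of enrichment with input level across peaks (-0.37) was -0.25 with at least 20 input reads and -0.53 among peaks called in flox. The causes of these shifts were not tested. In none of these alternatives did a direction turn. In 3 alternatives (summed reads per gene, at least 20 input reads, peaks called in flox) all 25 gene lists stayed on their side of the median of all genes.

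No paired analysis was possible because there is 1 library per fraction and no test. Leaving out a replicate was not possible either. Depth limits the weak end: the interval of a ratio spans a median factor of 3.67 with fewer than 20 input reads (1609 peaks) and 1.69 above. Merged peaks, 1 pool of mice and unknown strand limit every value. The scalings relative to input level, the exon junctions, the reversed consensus and the summits were chosen after seeing the data.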

Other observations

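Peaks classed as intronic fell into those on and those off an exon of the reference. Of 700 peaks classed as intronic, 477 overlapped an exon of the reference and had a median of 2.28, while the 223 that overlapped none had a median of 3.41. The highest of these 223 with at least 20 input reads were in Sult2a8, with 31.8 RPM in IP and 2.54 RPM in input (chromosome 7, 14415405 to 14415673), an enrichment of 12.5 (9.21 to 18.4), and Cfhr3, with 17.4 RPM in IP and 1.40 RPM in input (chromosome 1, 139644301 to 139644783), an enrichment of 12.4 (8.25 to 21.5). Tat, the tyrosine aminotransferase of hepatocytes, was chosen after its values were seen: its intronic peak had 76.9 RPM in IP and 9.88 RPM in input (chromosome 8, 109993382 to 109993575), an enrichment of 7.78 (6.60 to 9.35). That Tat peak is not marked as called in flox. Peaks with no gene in the table also included strong ones, the highest with at least 20 input reads at 15.8 (10.5 to 27.3) on chromosome 7, 138889310 to 138889600.

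Enrichment differed between gene biotypes. Peaks of lincRNA genes had a median of 3.74 (3.13 to 4.30, n = 81), those of protein-coding genes 2.86 (n = 10918), those of antisense genes 2.53 (2.34 to 3.11, n = 71) and those of processed pseudogenes 1.84 (1.71 to 1.99, n = 392). Malat1, a nuclear lincRNA chosen after its values were seen, had 1123 RPM in IP and 265 RPM in input, an enrichment of 4.23 (4.09 to 4.38), and Neat1, which builds paraspeckles and was chosen in the same way, 262 RPM in IP and 76.1 RPM in input, an enrichment of 3.44 (3.23 to 3.68). Pseudogene peaks can hold reads of the parent gene.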
